A study of Ovis aries with 8 samples.

Results

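CYP2D14 and 9 other genes of drug metabolism were examined in the fat around the kidney of lambs. The 10 genes were listed by symbol: CYP2D14, CYP1A1, CYP1B1, CYP2E1, POR, CYB5A, GSTM1, GSTP1, EPHX1 and NQO1. In the array annotation used here 7 of them had a named probe set, 10 probe sets in all, out of 9155 named genes and 24016 bovine probe sets. CYP1B1, GSTM1 and GSTP1 were not analysed here. A gene with several probe sets is represented by its brightest one, taken as the mean of all arrays, and both CYP2D14 probe sets are given. CYP2D14 was chosen on the genotype difference in these same arrays, and the others were added by function with earlier results known, so the differences of CYP2D14 and CYP1A1 are a description. Where they are counted against the thresholds of the study, the count carries no evidence of its own.

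The animals were male lambs of 12 weeks from a Dorset/Suffolk/Rambouillet cross-bred flock, not yet weaned. There were 4 NmatCpat lambs, which inherited the Callipyge allele from the sire and the normal allele from the dam, and 4 NmatNpat lambs with the normal allele from both parents. Each lamb gave 1 Affymetrix Bovine Genome array, whose probes were designed on cattle sequence, so a sheep transcript that differs under the probes can read low. The Callipyge allele is a point mutation between the imprinted genes DLK1 and MEG3. It enlarges certain muscles only when it comes from the sire and the dam gives the normal allele. The study asked whether it also alters transcription in a fat depot. Values are log2 intensities after quantile normalization unless given as deposited intensities, which are linear.

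Drug-metabolizing enzymes make fat-soluble compounds easier to excrete. Cytochromes P450, such as those of the CYP1 and CYP2 families, insert oxygen into the substrate, with electrons passed on by the reductase POR and, for some reactions, by cytochrome b5, the product of CYB5A. The epoxide hydrolase EPHX1 and the quinone reductase NQO1 then deal with reactive products, and transferases attach glutathione, sulphate or glucuronic acid. The pathway is best known from the liver, where the human relative CYP2D6 oxidizes many medicines. Fat stores fat-soluble compounds, and several of these enzymes act on steroids and fatty acids too.

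The tissue read as fat, although 1 of 6 measured adipocyte markers, the hormone leptin (LEP), was dim. It lay between 3.84 and 5.50 in the NmatCpat lambs and between 3.80 and 5.78 in the NmatNpat lambs. ADIPOQ, the adipocyte hormone adiponectin, lay between 13.00 and 13.29 in the NmatCpat lambs and between 12.81 and 13.18 in the NmatNpat lambs, and the fatty acid binding protein FABP4 between 13.69 and 13.74 in the NmatCpat lambs and between 13.63 and 13.73 in the NmatNpat lambs. Median deposited intensities were 65.9 to 71.7 in the NmatCpat lambs and 65.3 to 72.6 in the NmatNpat lambs. The array of NmatNpat animal 1 stood apart. On it 184 probe sets exceeded their average over the remaining arrays by more than 3 log2 units. By the same count the other lambs had 20 to 54. NEFL, a neurofilament subunit, read 12.13 in NmatNpat animal 1 and at most 6.09 in the other lambs. NmatCpat animal 4 had 23 such probe sets and was set aside with it for MYL2, a myosin light chain, which read 7.03 there and at most 3.63 in the other lambs. The muscle genes ACTA1, at 9.92, TNNC1, at 7.27, and MYH1, at 6.76, were also highest in this lamb, while MYH7 and CKM were not. Over 6 neuron genes the summed linear level was 99.0 to 189 in the NmatCpat lambs and 97.0 to 18600 in the NmatNpat lambs, and 1 of them, ELAVL4, an RNA-binding protein of neurons, passed the study's thresholds of a P at most 0.05 and more than 1.5-fold. Over 6 skeletal muscle genes it was 3670 to 5750 in the NmatCpat lambs and 4520 to 6680 in the NmatNpat lambs, with none past them. MYH7 was by far the brightest of the 6, at 11.25 to 11.95 in the NmatCpat lambs and 11.67 to 12.31 in the NmatNpat lambs. By sign 4 of the 6 were higher in NmatCpat, with a median log2 difference of 0.34. No adipocyte, macrophage, endothelial, fibroblast or mesothelial marker passed either. The listed genes below were also compared with the arrays of these 2 lambs removed.

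CYP2D14 read higher in every NmatCpat lamb than in any NmatNpat lamb on both of its probe sets. On the brighter one the 4 NmatCpat lambs had 10.78, 9.84, 10.08 and 10.12, against 9.33, 9.15, 9.20 and 8.90 in the 4 NmatNpat lambs. The lowest NmatCpat lamb stood 0.51 above the highest NmatNpat lamb. The means were 10.21 ± 0.405 in the NmatCpat lambs and 9.14 ± 0.179 in the NmatNpat lambs (SD, n = 4 each). Their log2 difference was 1.06 (standard error 0.23), or 2.09-fold. Before the normalization done here, the deposited intensities were 1740.2, 929.8, 1082.4 and 1134.5 in the NmatCpat lambs and 645.6, 561.5, 593.4 and 480.0 in the NmatNpat lambs, again without overlap.

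On the dimmer CYP2D14 probe set the NmatCpat lambs had 10.18, 9.23, 9.04 and 9.32, against 8.34, 7.82, 8.09 and 7.62 in the NmatNpat lambs. The means were 9.44 ± 0.506 in the NmatCpat lambs and 7.97 ± 0.312 in the NmatNpat lambs (SD, n = 4 each), a log2 difference of 1.47 with a standard error of 0.29, or 2.78-fold. NmatCpat animal 1 was the highest of all lambs on both probe sets, followed in its genotype by animal 4, and the NmatNpat lambs had the same order on both, animal 1, 3, 2 and 4. Both probe sets were designed on 1 cattle sequence, so they are not independent measurements of the transcript. The _s_at suffix of the brighter one marks probes shared between transcripts, and P450 genes of 1 family are similar in sequence, so signal from close relatives of CYP2D14 cannot be told apart from it.

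**Figure D1:**
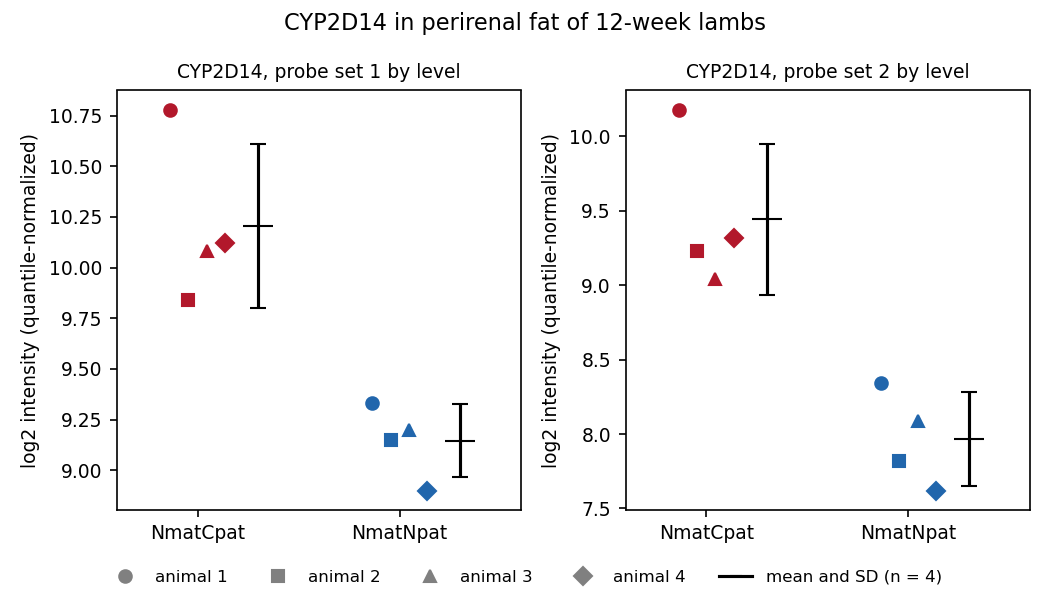
Log2 intensity (vertical axis, quantile-normalized) of CYP2D14 on its brighter probe set (left) and its dimmer one (right). Points are single lambs, with 1 symbol per animal number, and the bars beside them are the mean and SD of 4 lambs. All NmatCpat lambs lie above all NmatNpat lambs, at 9.84 to 10.78 against 8.90 to 9.33 on the left and at 9.04 to 10.18 against 7.62 to 8.34 on the right.

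The size of the CYP2D14 difference varied with the processing and the lambs included; its sign could not turn when a lamb was left out, since the genotypes do not overlap. It ran from 0.87 to 1.19 on the brighter probe set and from 1.23 to 1.64 on the dimmer one, and it was 1.27 for the mean of both. The lowest values, 0.87 and 1.23, were those with NmatCpat animal 1 removed. With NmatCpat animal 4 and NmatNpat animal 1 removed, the differences were 1.15 and 1.64.

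The sheep assembly ARS-UI_Ramb_v3.0 does not name CYP2D14 and names the CYP2D gene of its chromosome 3 as CYP2D6. Of the 3 nearest measured genes on each side of it, taken after values had been seen, none passed both thresholds, and their log2 differences ran from -0.06 to 0.33. NDUFA6, a subunit of respiratory complex I, differed by 0.10, SMDT1, a subunit of the mitochondrial calcium uniporter, by 0.02, and TCF20, a transcriptional coregulator, by 0.04.

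Markers of the liver, where P450 enzymes are most abundant, and of the kidney and adrenal gland, which this fat surrounds, were read beside CYP2D14. Of 11 measured hepatocyte genes, by their brightest probe sets, 2 were higher in NmatCpat by sign and none passed both thresholds, and their summed linear level was 2210 to 2530 in the NmatCpat lambs, against 2260 to 2820 in the NmatNpat lambs. The brightest of 9 probe sets annotated to ALB, serum albumin, differed by -0.09, while 2 dim ones passed both thresholds, at -3.83 and -3.69, with 3 of the 4 NmatNpat lambs high. Of 6 kidney tubule genes 2 were higher by sign and none passed, with sums of 217 to 281 in the NmatCpat lambs, against 171 to 497 in the NmatNpat lambs. Of 8 adrenal cortex genes 5 were higher by sign and none passed, with sums of 319 to 394 in the NmatCpat lambs, against 255 to 376 in the NmatNpat lambs. Below the median level of all probe sets lay 8 of the 11 hepatocyte, 5 of the 6 kidney tubule and 7 of the 8 adrenal cortex genes. The sums therefore rest on dim probe sets and a few brighter ones. NR5A1, an adrenal cortex gene above that level, differed by 0.42 (95% interval 0.02 to 0.81), or 1.33-fold. The part of liver, kidney or adrenal cells in the CYP2D14 difference was not tested. In whole tissue, a changed share of a cell type and a changed level per cell cannot be told apart.

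CYP1A1, the P450 that the aryl hydrocarbon receptor induces most strongly, was read by 3 probe sets that did not behave alike. On the brightest the NmatCpat lambs had 6.28, 5.35, 5.58 and 5.87, against 5.00, 4.89, 5.27 and 4.78 in the NmatNpat lambs. The genotypes did not overlap, but only 0.08 separated the nearest lambs. The log2 difference was 0.79 with a standard error of 0.24, or 1.72-fold. The next probe set had 4.49, 3.45, 4.99 and 5.37 in the NmatCpat lambs and 5.36, 4.10, 3.83 and 5.18 in the NmatNpat lambs, a difference of -0.04 (95% interval -1.22 to 1.13). The dimmest had 4.04, 5.85, 3.94 and 3.92 in the NmatCpat lambs and 5.20, 4.07, 3.23 and 5.80 in the NmatNpat lambs, a difference of -0.14 (95% interval -1.67 to 1.39). The lambs overlapped throughout on both. With the mean of the 3 probe sets the difference was 0.20, with an offset of 16 before the log it was 0.57, and with NmatCpat animal 4 and NmatNpat animal 1 removed it was 0.76. In these 3 settings it was not past the thresholds.

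None of the genes around CYP1A1 or of its regulators passed the thresholds. CYP1A2, its closest relative, differed by 0.52 on its brighter probe set (95% interval -0.25 to 1.29) and by -0.16 on the other. AHR, the receptor itself, differed by 0.14 and its dimerization partner ARNT by -0.11. AHRR, the repressor that the receptor induces, was dim, at 1.45 to 2.17 in the NmatCpat lambs and 0.63 to 2.42 in the NmatNpat lambs, and differed by -0.02. TIPARP, another target of the receptor, differed by -0.12. CYP1A1 lies on sheep chromosome 18, which also carries the Callipyge locus, and the 3 nearest measured genes on each side differed by -0.31 to 0.31.

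CYP2E1, which oxidizes ethanol and ketone bodies, was near the lower end of the array and varied widely among lambs. It had 1.85, 5.41, 3.03 and 5.91 in the NmatCpat lambs and 2.67, 2.03, 1.87 and 3.89 in the NmatNpat lambs. NmatCpat animals 2 and 4 lay above all NmatNpat lambs, and NmatCpat animal 1 was the lowest of the 8. As deposited, these were intensities of 4.1, 41.4, 8.4 and 57.9 in the NmatCpat lambs and 6.7, 4.2, 3.4 and 14.4 in the NmatNpat lambs. Its log2 difference of 1.44 had a standard error of 0.94 (95% interval -0.74 to 3.61, limma's adjusted p = 0.98). It was 2.17 without NmatCpat animal 1, where it passed both unadjusted thresholds, and 0.74 with an offset of 16 before the log. Among the 6004 dimmest probe sets, CYP2E1 included, the SD within genotypes had a median of 1.07 log2 units, against 0.233 for the 6004 brightest.

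The plot of differences by setting puts CYP2D14 beside the other P450 genes of the list. CYP2D14 ran from 0.87 to 1.64 over both probe sets. It was chosen on this difference, so its range is a description and is not compared with the others. CYP2E1, which was dim, ran from 0.74 to 2.17 over 18 alternatives. CYP1A1 ran from 0.20, with the mean of its probe sets, to 0.93.

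**Figure D2:**
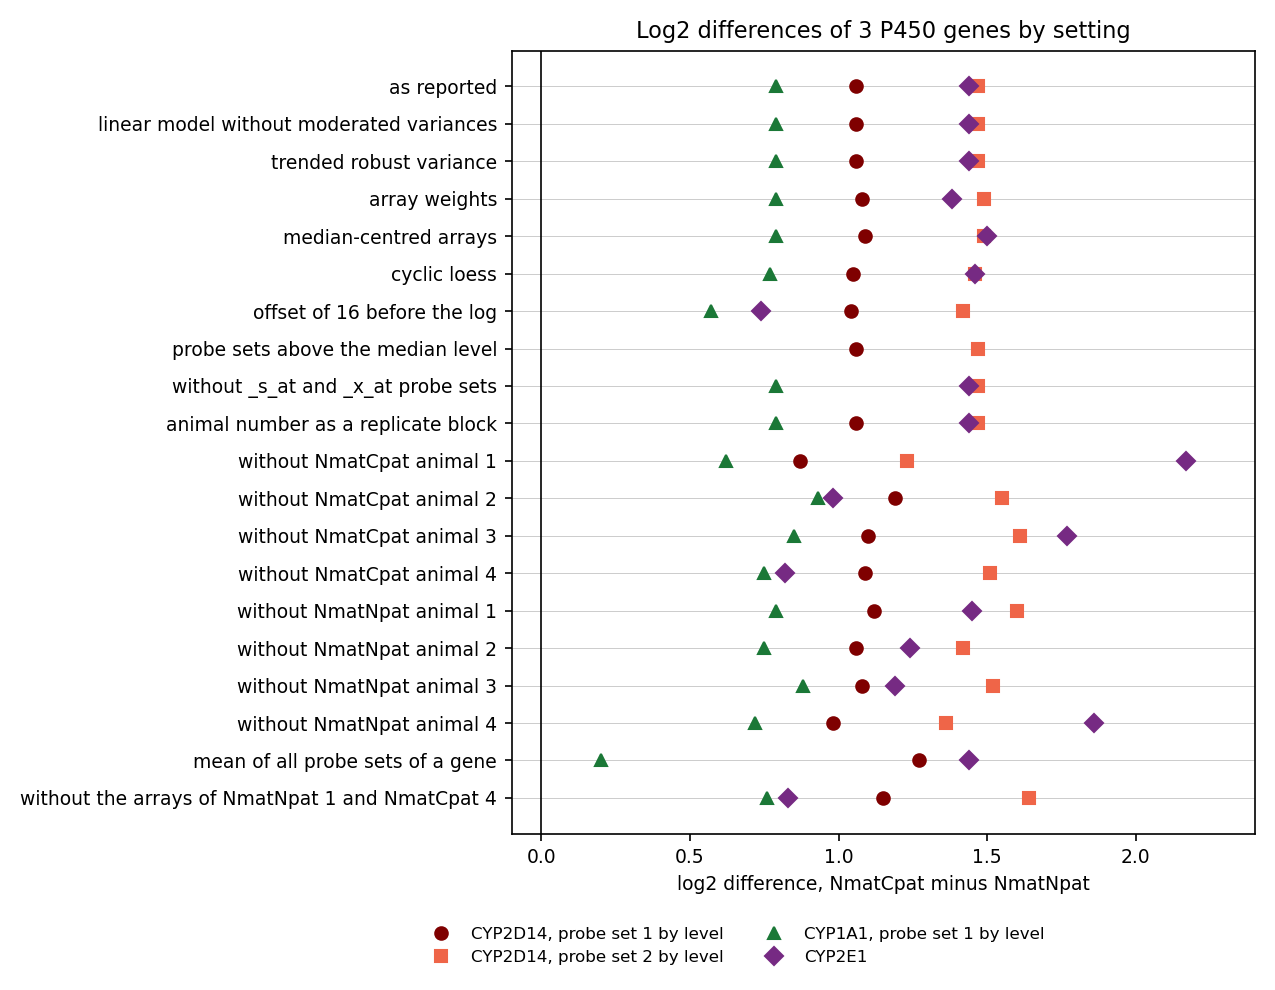
Log2 difference, NmatCpat minus NmatNpat (horizontal axis), of CYP2D14 on both probe sets, of the brightest CYP1A1 probe set and of CYP2E1, as reported (top) and under each alternative (vertical axis); probe set 1 by level is the brighter one. A point is missing where a filter removed the probe set, and in the setting that averages the probe sets of a gene CYP2D14 has 1 point. CYP2D14 stays between 0.87 and 1.64, CYP1A1 falls to 0.20 with the mean of its probe sets and CYP2E1 reaches 2.17 without NmatCpat animal 1.

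The electron donors of the P450 system were bright and their genotypes overlapped. POR, the reductase that passes electrons to P450 enzymes of the endoplasmic reticulum, had 8.49, 8.19, 8.28 and 8.29 in the NmatCpat lambs and 8.20, 8.08, 8.14 and 8.22 in the NmatNpat lambs. It had the smallest SDs of the 7 genes, 0.126 in the NmatCpat and 0.0608 in the NmatNpat lambs. Its log2 difference was 0.15 (95% interval -0.19 to 0.49, limma's adjusted p = 0.98), and the interval lies inside a 2-fold change in either direction. NmatCpat animal 1, the highest lamb for CYP2D14, was also the highest for POR.

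CYB5A had 8.93, 9.73, 8.61 and 8.44 in the NmatCpat lambs and 8.26, 9.49, 8.60 and 8.49 in the NmatNpat lambs. Animal 2 of each genotype was high, and the other lambs lay between 8.26 and 8.93. Nothing in the labels relates lambs of the same number. Its log2 difference was 0.22 (95% interval -0.63 to 1.07, limma's adjusted p = 0.98), and -0.05 with NmatCpat animal 2 removed.

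EPHX1, the microsomal epoxide hydrolase, had 11.49, 11.54, 10.78 and 10.64 in the NmatCpat lambs and 10.88, 11.02, 10.98 and 10.85 in the NmatNpat lambs. The NmatNpat lambs kept within a narrow band, with an SD of 0.0796, while the NmatCpat lambs fell into a high and a low pair on either side of it, with an SD of 0.467. Its log2 difference was 0.18 (95% interval -0.39 to 0.75, limma's adjusted p = 0.98).

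NQO1, which reduces quinones by 2 electrons and is a known target of the transcription factor NFE2L2, had 7.32, 6.74, 7.50 and 7.71 in the NmatCpat lambs and 7.48, 7.41, 7.81 and 7.50 in the NmatNpat lambs. NmatCpat animal 2 was the lowest of the 8, and the other lambs overlapped. NQO1 was the only measured gene of the 7 with a negative difference on the probe set that stands for it, at -0.23 (95% interval -0.78 to 0.31, limma's adjusted p = 0.98). Without NmatCpat animal 2 it was -0.04. NFE2L2 itself differed by 0.18, its inhibitor KEAP1 by 0.10, and GCLM, another of its targets, by -0.38. GCLC, on the same list as GCLM, went the other way at 0.64 (95% interval -1.07 to 2.35). Other probe sets gave 0.61 for NFE2L2 and 0.30 and -0.18 for KEAP1. None of these passed the thresholds. GCLM, at 6.76 to 7.02 in the NmatCpat lambs and 7.04 to 7.65 in the NmatNpat lambs, did not overlap between genotypes, but only 0.02 separated the nearest lambs.

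**Figure D3:**
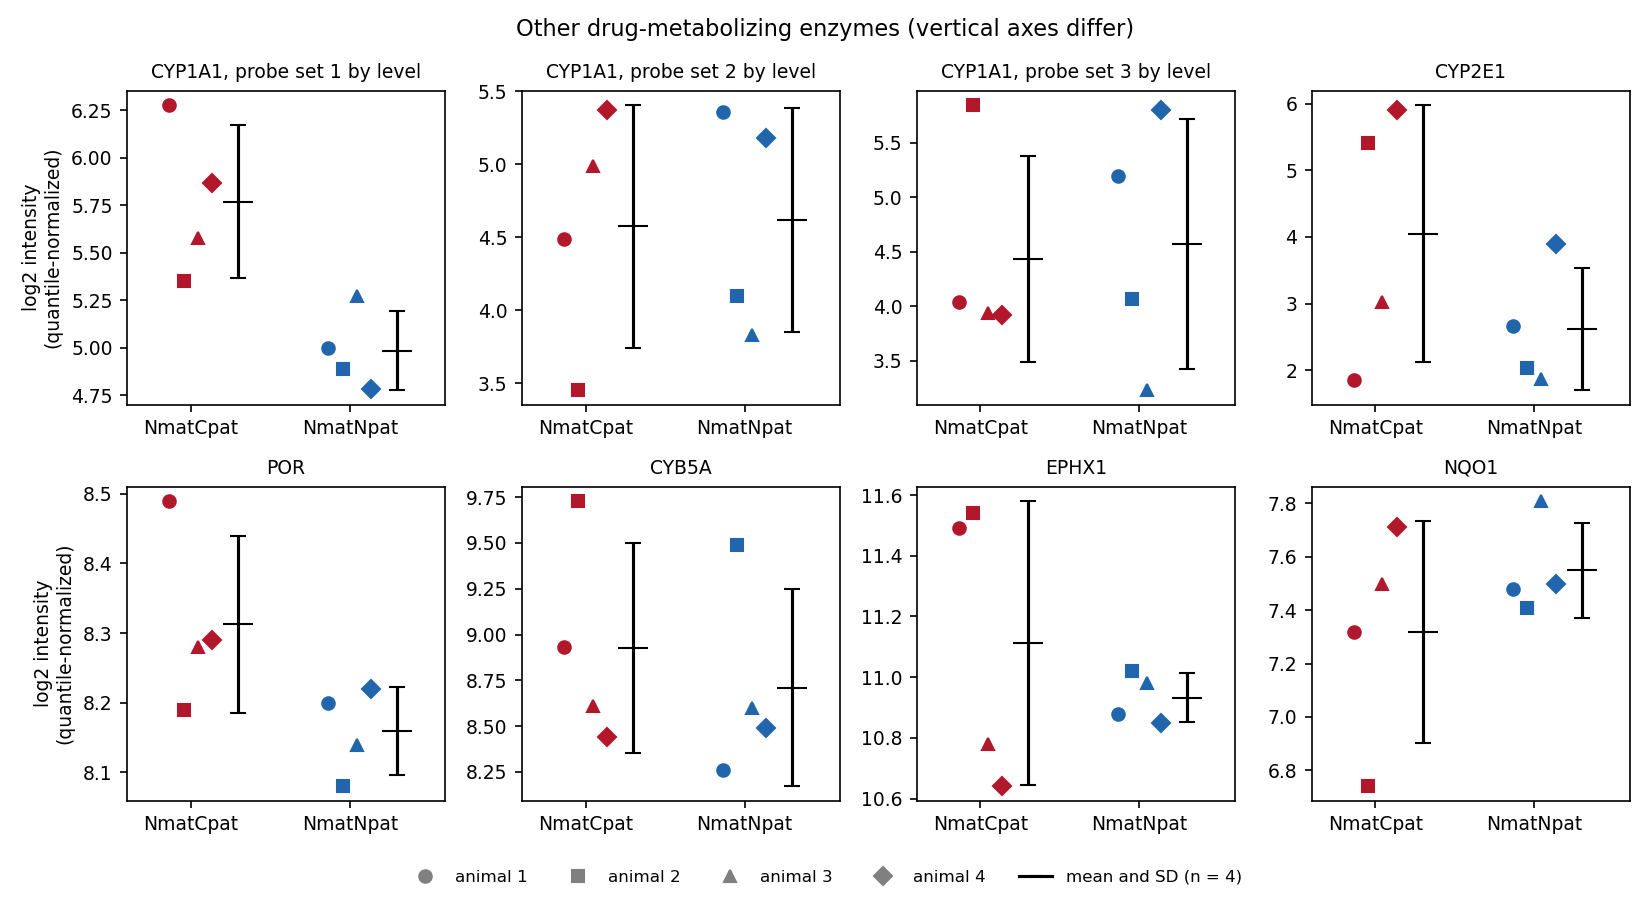
Log2 intensity (vertical axes, quantile-normalized, with a different range in each panel) of the other 8 probe sets: 3 of CYP1A1 and 1 each of CYP2E1, POR, CYB5A, EPHX1 and NQO1. Points are single lambs and bars the mean and SD of 4 lambs. The genotypes overlap in every panel except the brightest CYP1A1 probe set, where 0.08 separates them.

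Of the 7 measured genes, 6 were higher in NmatCpat by sign and 1 was lower. Their median log2 difference was 0.22, against 0.0 over the brightest probe sets of all genes and 0.01 over all probe sets. CYP2D14 and CYP1A1, 2 of the 7, passed both thresholds, and both were higher in NmatCpat. Over the brightest probe sets of all 9155 genes 2.91% passed, 1.39% higher and 1.52% lower in NmatCpat, and over all 24016 probe sets 3.93%. The genotypes did not overlap in the same 2 genes, against 2.84% of the 9155. CYP2D14 was on the list for its difference, so these counts carry no weight as a result about the list. With limma 0 of the 24016 probe sets (0.0%) reached an adjusted p under 0.05 and 1118 an unadjusted P of at most 0.05, and a linear model without moderated variances gave 0 and 1130. For POR, EPHX1 and NQO1 the 95% interval lay inside a 2-fold change in either direction. For CYB5A, CYP2E1 and the 2 dimmer CYP1A1 probe sets it reached past 2-fold, so a difference of that size is not excluded there.

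**Figure D4:**
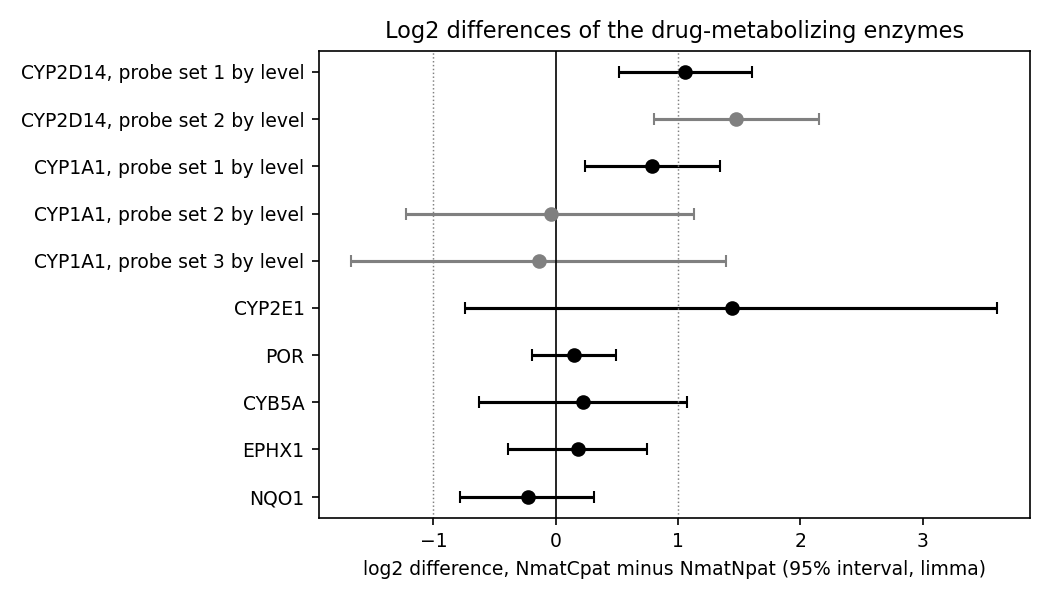
Log2 difference, NmatCpat minus NmatNpat (horizontal axis), with the 95% interval from limma for all 10 probe sets; black points stand for the gene and grey ones are its other probe sets. Dotted lines mark a 2-fold change. CYP2D14 lies at 1.06 and 1.47, CYP1A1 at 0.79, -0.04 and -0.14, and the interval of CYP2E1 is the widest, from -0.74 to 3.61. The intervals of CYP2D14, which was chosen on this difference, and of CYP1A1 are a description with no test.

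Other genes of the pathway were read from 7 lists with 182 genes, of which 112 had a named probe set. In all, 53 were higher and 59 lower in NmatCpat by sign, with a median log2 difference of -0.01, and 7 passed both thresholds, 5 higher and 2 lower. This is 6.25%, against 2.91% of all genes. With limma 0 of the 112 reached an adjusted p under 0.05. An unadjusted P of at most 0.05 was found for 8 of them, against 347 of all 9155 genes (3.79%). With NmatCpat animal 4 and NmatNpat animal 1 removed, MGST3, TPMT and ALAD passed, together with HNMT, which methylates histamine. The lists were written with earlier results of these data known.

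Among 13 other P450 enzymes 1 passed, CYP2C87, a P450 of the cattle CYP2C family, with 6.12, 6.13, 5.55 and 6.14 in the NmatCpat lambs and 3.23, 5.82, 4.01 and 5.43 in the NmatNpat lambs. The log2 difference was 1.36 (standard error 0.56), and the genotypes overlapped, since NmatNpat animal 2 lay above NmatCpat animal 3. It did not pass without NmatCpat animal 1, 2 or 4 or NmatNpat animal 1 or 3, where it ran as low as 0.90. Nor did it pass without moderated variances, and a filter at the median level removed it. The median of the 13 was 0.03. Among 32 other oxidoreductases, hydrolases and electron donors the median was -0.03, and AKR1C3, an aldo-keto reductase of steroids and prostaglandins, passed with 1.21. It was dim, at 2.04 to 3.29 in the NmatCpat lambs and 1.06 to 2.35 in the NmatNpat lambs, and passed without each single lamb, with 1.03 to 1.46. It did not pass when the prior variance was trended and robust, with an offset of 16 before the log, or with NmatCpat animal 4 and NmatNpat animal 1 removed, and a filter at the median level removed it.

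In the 13 genes of glutathione transfer and supply the median was -0.10, with 1 higher and 1 lower past the thresholds. MGST3, a bright microsomal glutathione transferase, had 12.62, 12.31, 12.00 and 12.24 in the NmatCpat lambs and 12.01, 11.75, 11.71 and 11.04 in the NmatNpat lambs. NmatNpat animal 1 lay just above the lowest NmatCpat lamb. The difference of 0.66 (standard error 0.25) did not pass without NmatCpat animal 1, 2 or 4 or without NmatNpat animal 4, where it was 0.47. GSTT1, a theta-class transferase, was dim and differed by -1.16, and did not pass without NmatCpat animal 2 or 4 or NmatNpat animal 2 or 3, with -0.75 at the weakest. It also did not pass without moderated variances, when the prior variance was trended and robust, or with an offset of 16 before the log. MGST1 and GSTM3, both bright, differed by 0.15 and -0.17.

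Of 16 other conjugating enzymes TPMT, which methylates thiopurine drugs, passed with 0.69 (standard error 0.24). It had 4.73, 4.79, 4.27 and 4.28 in the NmatCpat lambs and 3.35, 4.20, 3.78 and 3.98 in the NmatNpat lambs, without overlap but with 0.07 between the nearest lambs, and did not pass without NmatCpat animal 1 or 2 or NmatNpat animal 1, where it was as low as 0.53. It also did not pass when the prior variance was trended and robust, or with an offset of 16 before the log. The list's median was -0.13. Among 13 drug transporters SLCO1B3, a hepatic uptake transporter, was near the floor and differed by -1.53. It did not pass without NmatCpat animal 1 or 2 or NmatNpat animal 1, 3 or 4, where it was between -1.56 and -1.14, and the list's median was 0.23. SLCO1B3 also did not pass without moderated variances, with an offset of 16 before the log, or with the animal number as a block. None of the 14 sensors and regulators passed. Their median was -0.11, and the smallest P belonged to RXRA, a partner of the xenobiotic receptors, with -0.38 (95% interval -0.98 to 0.23).

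Haem is the prosthetic group of every P450. Of 11 genes of its synthesis and breakdown 8 were higher in NmatCpat by sign, with a median of 0.13, and 1 passed. ALAD, which makes the pyrrole ring porphobilinogen, had 9.94, 10.23, 9.69 and 9.59 in the NmatCpat lambs and 9.39, 9.50, 8.80 and 9.18 in the NmatNpat lambs. No NmatCpat lamb was below an NmatNpat lamb, with 0.09 between the nearest. The difference was 0.65 (standard error 0.23, adjusted p = 0.98 from limma), and it did not pass without NmatCpat animal 2, where it was 0.52, or NmatNpat animal 3, where it was 0.51. ALAS1, the first and rate-limiting enzyme of the pathway, differed by -0.16, and the haem oxygenase HMOX1 by -0.34.

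**Figure D5:**
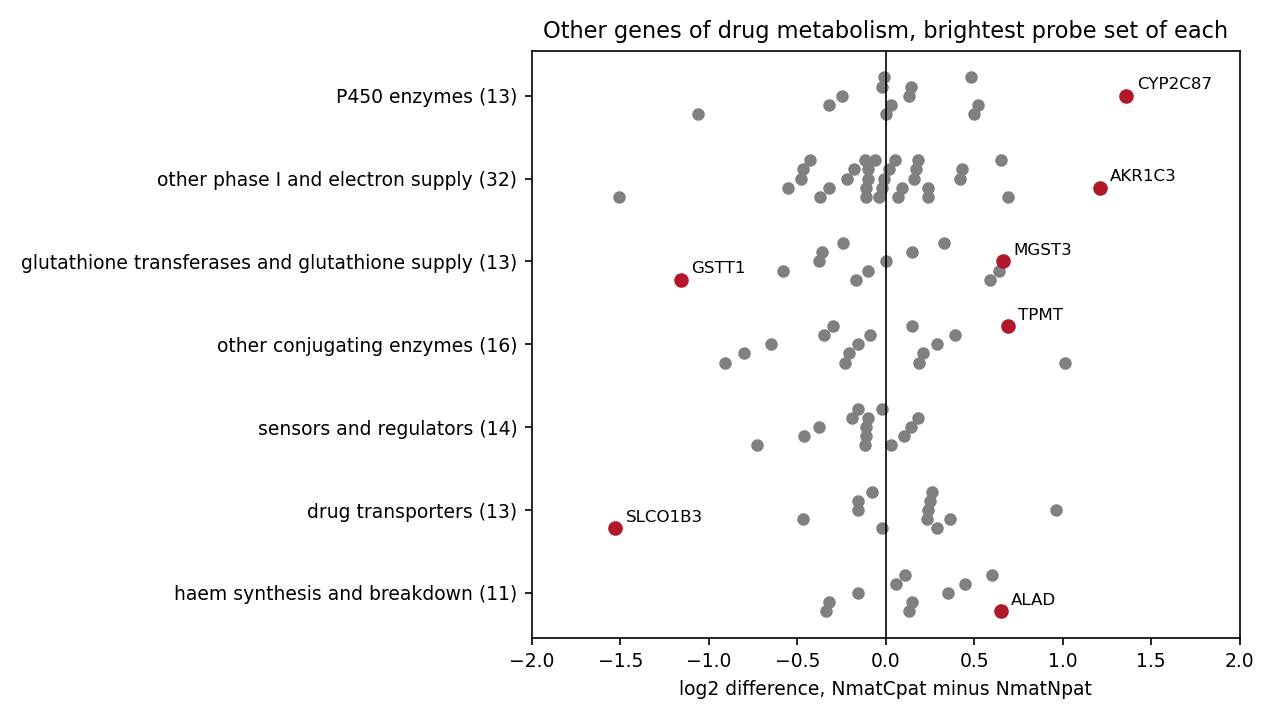
Log2 difference, NmatCpat minus NmatNpat (horizontal axis), of 112 further genes of drug metabolism by list (vertical axis, number measured in brackets; the spread within a row only separates points). Red, named points passed both thresholds: CYP2C87 at 1.36, AKR1C3 at 1.21, MGST3 at 0.66, TPMT at 0.69 and ALAD at 0.65 above 0, and GSTT1 at -1.16 and SLCO1B3 at -1.53 below it.

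The transcripts most like CYP2D14 across lambs were sought among 6332 named genes above the median level, by Pearson's correlation of the brightest probe sets over the 8 arrays. The 3 highest were DPF2, a chromatin reader, at 0.96, CHID1, a chitinase domain protein, at 0.95, and COX7A2, a subunit of cytochrome c oxidase, at 0.94. Their differences between the genotypes were smaller than that of CYP2D14, at 0.45, 0.45 and 0.40, and none reached a 1.5-fold change. They were picked as the highest of many, and the points share the split between genotypes, so the coefficients are a description with no test. In all 3 the genotypes did not overlap and NmatCpat animal 1 was the highest lamb, as it was for CYP2D14. A choice by likeness to CYP2D14 favours both traits, so they are no separate result. Over all 9155 genes 2.84% did not overlap.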

How the data were processed

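Perirenal adipose tissue of 4 NmatCpat and 4 NmatNpat lambs was measured on 8 arrays. The authors pre-processed the scans with MAS5 (no version is given in the sources used here), and their methods describe background correction and quantile normalization. The deposited intensity values are linear, with a lowest value of 0.1, and their columns do not share quantiles. Here their log2 values were therefore quantile-normalized over 24128 probe sets. After removal of 112 control probe sets, the 24016 bovine ones entered 1 moderated linear model (limma 3.58.1, R 4.3.3), in which genotype was the sole term, with Benjamini-Hochberg adjustment. The thresholds (P at most 0.05, more than 1.5-fold) are those of the study, whose text does not name the statistic. Intervals are at the 95% level. Only 8 arrays limit the precision.

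Symbols came from the platform annotation, which is old: 13292 probe sets had 1 symbol, 86 several and 10638 none. No pair of arrays shared over 0.34% of its values. Genes were named by rule: the listed genes, pathway genes past the thresholds or with the smallest P of a list, and the 3 transcripts most like CYP2D14. Other genes, named for their role, were chosen after their values were seen. The members and lists were chosen with earlier results of these data known. Alternatives changed the variance (unmoderated, or trended and robust), the weight of the arrays, the scaling (medians or cyclic loess) and the offset before the log (16). Others removed dim or cross-binding probe sets, used animal number as a block, left out each lamb or averaged a gene's probe sets. The alternative that removes NmatCpat animal 4 and NmatNpat animal 1 was chosen after seeing the data.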

Additional observations from a re-analysis of the deposited data

Results flagged for a closer look

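Within groups of 4 lambs, 34 groups were examined for a lamb far from the other three by Dixon's criterion (its gap to the next lamb over the group's range), which flags about 1 group in 20 by chance, and 2 met it. On the dimmest CYP1A1 probe set NmatCpat animal 2 read 5.85, against 3.92 to 4.04 in the other NmatCpat lambs, and 3.23 to 5.80 in NmatNpat lambs. For CYP2C87 NmatCpat animal 3 read 5.55, against 6.12 to 6.14 in the other NmatCpat lambs. The NmatNpat lambs lay between 3.23 and 5.82 for this gene.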

How the results depend on the processing

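CYP2D14, chosen on this difference, was past both thresholds wherever it was fitted, which is a description. The brighter probe set was not fitted when cross-binding probe sets were removed. Of the 7 measured genes 2 passed as reported, and 1, CYP2D14, passed with an offset of 16, above the median level (which removed CYP1A1 and CYP2E1), with the mean of a gene's probe sets and without NmatNpat animal 1 and NmatCpat animal 4. Leaving out single lambs gave 2 to 3 genes, the third being CYP2E1. Pathway genes past the thresholds numbered 7 as reported, 4 without moderated variances, with an offset of 16 and without those 2 arrays, 3 above the median level, and 3 to 8 with single lambs left out. Over all probe sets 943 passed as reported, 626 without moderated variances, 244 above the median level, where 12008 were tested, and 980 to 1054 with single lambs left out. At an adjusted p under 0.05 there was 1 probe set, KITLG, with a trended robust variance, an offset of 16 or above the median level, and 0 to 2 with single lambs left out, the 2 being the dim ALB probe sets without NmatNpat animal 2. Signs turned for the second CYP1A1 probe set with array weights (0.05), for the third without the 2 arrays (0.24), and with single lambs left out, where these ran from -0.31 to 0.33 and -0.61 to 0.27 and CYB5A from -0.05 to 0.48. The causes were not tested.

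The number was not taken as a pairing, since the deviations of same-numbered lambs correlated by only -0.0131 to 0.048. As a hint the other way, 5 of 8 lambs correlated best with their own number. With the animal number as a replicate block 2 members, 7 pathway genes and 1124 probe sets passed, none at an adjusted p under 0.05, and CYP2D14 kept 1.06 and 1.47.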

Other observations

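GSTA2, an alpha-class glutathione transferase, varied among lambs more than between genotypes. On the brightest of its 5 probe sets it read 11.67, 11.81, 8.23 and 9.81 in the NmatCpat lambs and 9.96, 11.60, 10.01 and 11.40 in the NmatNpat lambs. All 5 probe sets were lowest in NmatCpat animal 3, the range over the 8 lambs was 2.58 to 3.77 log2 units, and the log2 differences lay between -0.44 and -0.18. The probe sets share sequence, so they are not independent. ALDH1A1, which oxidizes retinal, had 10.73, 10.91, 10.35 and 10.95 in the NmatCpat lambs and 9.31, 9.85, 10.27 and 10.76 in the NmatNpat lambs, a log2 difference of 0.69 (95% interval -0.06 to 1.43), which passed both thresholds above the median level, with an offset of 16, when the prior variance was trended and robust, and without NmatNpat animal 4. A dimmer probe set of CYP4V2, a fatty acid hydroxylase, had 7.31, 7.64, 7.75 and 7.50 in the NmatCpat lambs and 8.37, 8.12, 8.06 and 8.06 in the NmatNpat lambs. Its log2 difference of -0.60, without overlap, passed both thresholds. The brightest CYP4V2 probe set, with the _s_at suffix, differed by 0.13, and the dimmest by -0.51 with overlapping genotypes. These genes were chosen after their values were seen.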
